A study of Mus musculus with 10 samples.

Results

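Cytokines, chemokines and their receptors were examined in the midbrain of mice with collagen-induced arthritis. The members are the probes with a single gene symbol in the platform's probe table whose symbol begins as an interleukin, a CC or CXC chemokine, one of their receptors, a TNF, interferon or colony-stimulating factor family gene, or a TGF-beta ligand or receptor. They came to 127 probes of 10080, for 124 of 8726 named genes. Of these probes, 61 stand for ligands, 59 for receptors of 56 genes, and 7 for genes that share the name stem but are neither (Il4i1, Tnfaip1, Tnfaip2, Tnfaip3, Tnfaip6, Tnfaip8l1 and Tnfaip8l2). All 127 probes had a RefSeq entry under the same symbol.

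The collagen group were male DBA/1 mice, an inbred strain prone to arthritis after immunisation with type II collagen, injected in the skin at 8 weeks of age with 100 ul of that collagen in 100 ul of complete Freund's adjuvant. The control group were male DBA/1 mice of the same age given 200 ul of the adjuvant without collagen. Mice of both groups had LPS, a bacterial endotoxin, at day 24 and were killed at a time labelled 31 with an unclear unit, so the controls also had adjuvant, at a larger volume, and endotoxin, both of which stimulate cytokine production. The 10 arrays were 2-colour oligonucleotide arrays that each held collagen RNA in one dye and control RNA in the other, as 5 dye-swap pairs from 3 biological replicates, with 2 pairs each for replicates 1 and 2 and 1 pair for replicate 3. The number of mice behind each RNA and their joint scores were not given in any source used here, and the p-values measure only the spread between these 3 replicates. Of 6 midbrain marker genes with a probe, 5 (Th, Ddc, En1, Nr4a2 and Pitx3) had a ratio in all 3 replicates, beside 41.1% of all probes. Markers of other brain regions were not read, so the midbrain label was not tested.

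Cytokines are secreted or membrane-held proteins by which immune and other cells signal to each other, and chemokines are the subset that direct cell movement. Interleukins, interferons and colony-stimulating factors mostly act through receptors of several chains, many of which signal through JAK and STAT proteins. Chemokine receptors are single-chain receptors coupled to G proteins, TNF family and IL-1 family receptors signal mainly towards NF-kappaB, and TGF-beta receptors act through SMAD proteins. In the brain, microglia, astrocytes, endothelium and neurons make and sense several of them, many at low RNA levels unless the tissue is inflamed. Both ligand and receptor RNAs of a family can therefore be read in tissue RNA, but in bulk RNA fewer cells of a type and less RNA per cell cannot be told apart.

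The upstream sequences of the members were read for 2 motifs. RefSeq windows around the gene start (GRCm38.p6) were matched for 96 of the 124 genes. The letters TATAAA, searched on both strands, lay in 15 of 52 ligand windows (28.8%), in 5 of 53 receptor windows (9.43%) and in 4473 of all 32851 windows (13.6%). The kappaB consensus, a motif that NF-kappaB factors bind, lay in 19.2% of ligand windows, 17.0% of receptor windows and 8.46% of all windows. A match is a description of letters and not a measured site. Of the members measured in all replicates, Il1b, Il13 and Il18 carry TATAAA, and Ccl27a, Ifngr2 and Il12rb2 carry the kappaB letters. Each motif lay in 3 of the 24 windows of these members (12.5%). Il1b and Ifngr2 are shown as 1 ligand and 1 receptor, with the match in capitals. The Il1b window is chr2:129371090-129371389 on the minus strand, and the Ifngr2 window is chr16:91546809-91547108 on the plus strand, both printed along the strand of the gene.
Il1b: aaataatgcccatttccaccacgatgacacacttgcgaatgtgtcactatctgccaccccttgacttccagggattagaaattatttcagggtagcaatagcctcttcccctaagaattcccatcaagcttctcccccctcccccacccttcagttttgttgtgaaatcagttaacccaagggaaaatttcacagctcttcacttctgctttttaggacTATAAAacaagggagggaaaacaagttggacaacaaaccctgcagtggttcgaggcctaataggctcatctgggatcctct
Ifngr2: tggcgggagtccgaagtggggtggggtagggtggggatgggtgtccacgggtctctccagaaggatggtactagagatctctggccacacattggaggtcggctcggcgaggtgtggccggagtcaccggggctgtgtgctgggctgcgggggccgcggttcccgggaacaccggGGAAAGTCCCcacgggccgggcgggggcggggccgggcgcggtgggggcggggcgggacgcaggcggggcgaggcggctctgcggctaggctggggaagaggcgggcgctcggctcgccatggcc

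Most members did not give a usable ratio in all 3 replicates. A ratio needs an intensity above 0 in both channels without a bad flag, and 24 of 127 member probes (18.9%) had one in all 3 replicates, against 41.1% of all probes on the array. By role, 8 of 61 ligand probes (13.1%), 14 of 59 receptor probes (23.7%) and 2 of the 7 others were measured in all 3 replicates. Probes with 1 symbol that are not members were measured at 42.4%. A ratio on all 10 arrays was found for 9 members (7.09%), against 18.2% of all probes.

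Among families, the interleukin receptors were measured most often in number, 8 of 26 probes, whereas 3 of 24 chemokine ligands, 1 of 10 chemokine receptors and 4 of 22 interleukin ligands were. None of the 4 interferon ligand probes, the 3 TGF-beta ligand probes or the 1 colony-stimulating factor ligand probe was measured in all 3 replicates. No replicate gave a pair of usable arrays for 41 of 127 members, beside 1943 of 10080 probes. Among them were Il6, which drives acute-phase responses, with a ratio on 1 array, and Ifng, which activates macrophages, with a ratio on 2 arrays, both named after their values were seen.

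Members with no ratio on any array were Cxcl1 (a neutrophil-attracting chemokine), Cxcl16 (a membrane-held chemokine for Cxcr6), Il1f6 (an IL-36 family ligand), Il22 (a T cell cytokine acting on epithelium) and Tnfaip8l1. These 5 are 3.94% of the member probes, beside 2.5% of all probes with no ratio on any array. Each had a channel A intensity on at least 8 arrays, so it was channel B that lacked a signal. Channel A was above 0 on all 10 arrays for 98 members (77.2%) and 77.7% of all probes, and channel B for 9 members (7.09%) and 18.5% of all probes. A channel A intensity above 0 was thus found for most probes on these arrays and does not by itself show expression.

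The share of members with a ratio differed between arrays. On the array of replicate 2, pair 2, with collagen in Cy3, 97 members (76.4%) had a ratio, against 83.6% of all probes. On the arrays of replicate 3, 41 members (32.3%, collagen in Cy3) and 45 members (35.4%, collagen in Cy5) had one, against 56.7% and 57.0% of all probes. The members' share lay below that of all probes on 8 of 10 arrays, and above it on the arrays of pair 1 with collagen in Cy3 in replicate 1 (59.8% against 54.9%) and in replicate 2 (52.0% against 51.6%). Replicate by replicate, 75, 68 and 29 members were measured (59.1%, 53.5% and 22.8%), beside 72.9%, 69.1% and 46.4% of all probes. Replicate 3 has 1 dye-swap pair, whereas replicates 1 and 2 have 2 each. Of the 38 members measured in 2 replicates, 33 lacked replicate 3. The median channel B signal of members with a signal was 1.58 to 2.77 times its background over the arrays, and that of all probes 2.02 to 3.68 times.

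**Figure D1:**
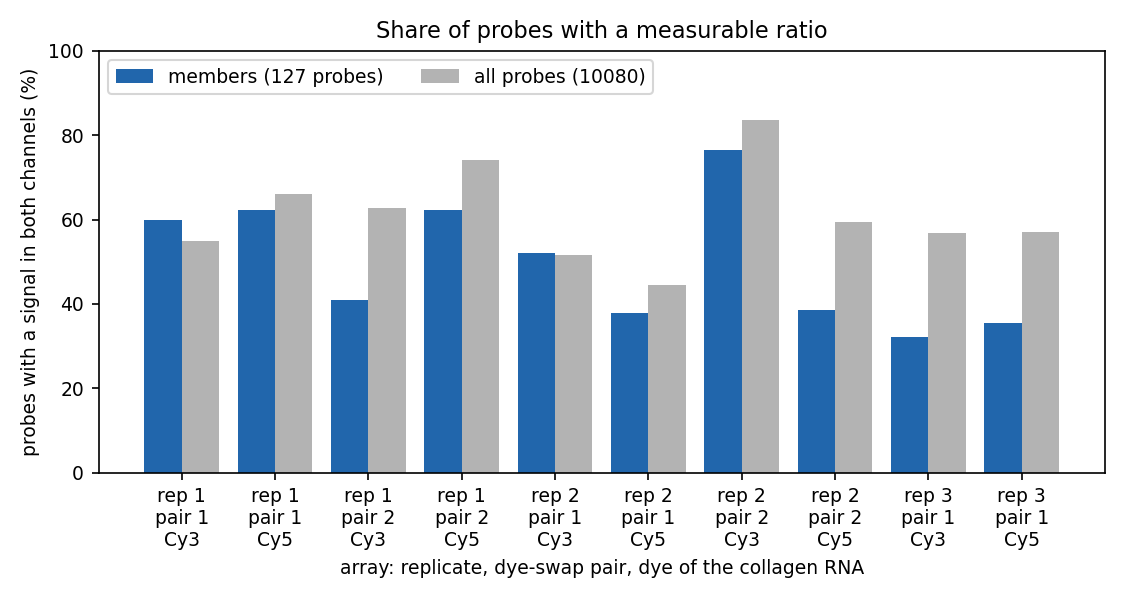
Percentage of the 127 member probes (blue) and of all 10080 probes (grey) with a signal in both channels, for each of the 10 arrays, named by replicate (rep), dye-swap pair and dye of the collagen RNA. Member shares run between 32.3% and 76.4%, and the arrays of replicate 3, at 32.3% and 35.4% in the members, stand at 56.7% and 57.0% over all probes.

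No member passed the test between collagen and control midbrain. The contrast is the log2 ratio of collagen over control, averaged over dye-swap pairs and replicates and tested against 0 with limma over 4139 probes. Its sign assumes that Cy3 is channel A and Cy5 channel B, which the order of the dye labels makes likely but no source states, and with the other reading each sign turns. At a Benjamini-Hochberg adjusted p under 0.05, 0 of the 24 members and 0 of 4139 probes (0%) were called by limma, and the lowest adjusted p of a member was 0.827. At an unadjusted p under 0.05, 2 members were higher in collagen and none lower (Tnfrsf21 and Tnfaip6), beside 1.21% of all tested probes that were higher and 2.73% that were lower at that threshold. The 24 member means lay between -0.12 and 0.24, with a median of 0.010, and the median of all probes was -0.025.

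Given limma's moderated spread, the precision was enough to bound the changes. That spread draws on all tested probes, and not only on the 3 replicates of a member. The 95% confidence interval of the mean ratio lay within a 2-fold change either way for 24 of 24 members, as for 99.3% of all tested probes. It lay within a 1.5-fold change for 23 of 24 members, as for 93.2% of all. The exception was Il17rd, whose interval reached 1.56-fold. These bounds hold for members bright enough to be measured in all replicates and say nothing of the rest. They also rest on the prior of the fit. With a trended robust prior, the unadjusted limma p of Tnfaip6 was 0.24, against 0.049 in the main fit. Intervals from a member's own replicates alone were not computed.

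Of the interleukin ligands, Il1b, the interleukin-1 beta that drives fever and endothelial activation, had log2 ratios of -0.08, 0.09 and 0.02 in replicates 1, 2 and 3 (mean 0.01 ± 0.09, SD, n = 3). These lie on both sides of 0. Il18, an IL-1 family cytokine that promotes interferon gamma release, had ratios of 0.003, -0.007 and 0.27 (mean 0.09 ± 0.16). Replicate 3 alone was away from 0. Il1f5, also called Il36rn, which blocks the IL-36 receptor, had ratios of 0.010, 0.07 and 0.19 (mean 0.09 ± 0.09), above 0 in each replicate but within 1.22-fold at the edge of its interval. Il13, a type 2 cytokine of allergic inflammation, had ratios of -0.17, -0.09 and 0.30 (mean 0.01 ± 0.25), with replicate 3 opposite to the other replicates.

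Of the chemokine ligands, Ccl4, made by activated macrophages and microglia to attract leukocytes, had ratios of 0.10, -0.05 and 0.14 (mean 0.06 ± 0.10). Cxcl12, the ligand of Cxcr4 that guides neuronal and leukocyte migration, had ratios of 0.003, -0.003 and 0.06 (mean 0.02 ± 0.03), the smallest spread among the ligands. Ccl27a, known as a skin-homing chemokine, had -0.006, -0.011 and 0.27 (mean 0.08 ± 0.16). In each of these genes replicate 3 was the highest replicate. Tnfsf9, the ligand of the T cell costimulator 4-1BB, had -0.03, 0.006 and 0.18 (mean 0.05 ± 0.11) and was also highest in replicate 3.

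All 8 ligand means were above 0 (median 0.06), beside 1688 of all 4139 probes (40.8%), but the count was 3 of 8 with median centring, 4 of 8 without replicate 3 and 1 of 8 with the channel letters tied to the RNA. With tied letters the values are B over A without turning, the same as the channel ratio given further below. Replicate 3 had ratios above 0 in 8 of 8 ligands, whereas replicates 1 and 2 had them in 4 and 3. Over all 24 members replicate 3 was above 0 in 18, with a median of 0.14, and the medians of replicates 1 and 2 were -0.03 and -0.005. Over all tested probes, the replicate 3 median was -0.02 and 1937 of 4139 were above 0. Of the 5 midbrain markers, Th, the tyrosine hydroxylase of dopamine neurons, had a ratio of 0.88 in replicate 3, En1 0.77 and Ddc 0.26, whereas Pitx3 had -0.04 and Nr4a2 -0.13. The part of tissue make-up in the member values of replicate 3 was not tested.

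Receptors of the interleukin-1 and interleukin-6 families were measured as follows. Il1rap, the accessory chain that IL-1 and IL-33 receptors need to signal, had ratios of -0.14, 0.19 and 0.56 (mean 0.20 ± 0.35), so its replicates lie on both sides of 0. Il6ra, the chain that binds IL-6, had ratios of -0.04, 0.04 and -0.16 (mean -0.05 ± 0.10). Il6st, the shared chain gp130 that transmits the IL-6 signal, had 0.08, -0.04 and -0.39 (mean -0.12 ± 0.25), the lowest mean among the 24 members tested. Both chains of the IL-6 receptor thus had replicate values of either sign, and a second Il6ra probe had a ratio on only 1 array.

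Of the interleukin-17 receptor family, Il17ra, the common chain, had ratios of 0.03, -0.20 and 0.15 (mean -0.01 ± 0.18). Il17rd, a family member that also restrains fibroblast growth factor signalling, had -0.02, -0.03 and 0.73 (mean 0.23 ± 0.44). Its mean rests on replicate 3, where the arrays gave 1.20 with collagen in Cy3 and 0.27 with collagen in Cy5. Without that replicate both values were near 0.

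Further cytokine receptors had replicates on both sides of 0. Il10rb, a chain shared by the IL-10, IL-22 and interferon lambda receptors, had ratios of -0.22, -0.05 and 0.27 (mean -0.0015 ± 0.25). Il12rb2, the signalling chain for IL-12 in T cells, had 0.03, 0.10 and -0.25 (mean -0.04 ± 0.18). Il15ra, which presents IL-15 to neighbouring cells, had -0.10, 0.02 and 0.37 (mean 0.10 ± 0.24). Replicate 3 was the highest for Il10rb and Il15ra and the lowest for Il12rb2. Csf2ra, the chain that binds GM-CSF, had -0.16, 0.01 and 0.05 (mean -0.03 ± 0.11). Ifngr2, the signalling chain of the interferon gamma receptor, had -0.23, -0.08 and 0.06 (mean -0.08 ± 0.14). Neither departed from 0 by more than its spread.

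A small number of receptors were on 1 side of 0 in each replicate. Cxcr2, a neutrophil chemokine receptor, had ratios of -0.12, -0.02 and -0.02 (mean -0.05 ± 0.06). Tgfbr2, the chain that binds TGF-beta first, had -0.05, -0.09 and -0.005 (mean -0.05 ± 0.04). Tnfrsf13c, the B cell receptor for BAFF, had -0.03, -0.09 and -0.12 (mean -0.08 ± 0.05). These 3 were lower in each replicate, beside 20.8% of all tested probes that were lower in all 3. The mean turned above 0 for Cxcr2 with print-tip loess (0.10), scaling between arrays (0.05) and the brightest scan (0.25), for Tgfbr2 without background correction (0.02), for Tgfbr2 and Tnfrsf13c in the authors' value table, and for all 3 with the channel letters tied to the RNA. A second Tgfbr2 probe, measured in replicates 1 and 2, had 0.27 and 0.19, opposite in sign to the first.

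On the higher side, Tnfrsf21, the death receptor DR6 of neurons and lymphocytes, had ratios of 0.03, 0.35 and 0.32 (mean 0.24 ± 0.18, adjusted p = 0.827). Replicate 1 was close to 0. Tnfaip6, a secreted protein that binds hyaluronan and is induced by TNF and IL-1, had 0.09, 0.18 and 0.46 (mean 0.24 ± 0.19, adjusted p = 0.827). With Il1f5, 3 members were higher in each replicate, beside 8.92% of all tested probes. The Il1f5 mean fell below 0 with median centring (-0.08), print-tip loess (-0.01), the first scan (-0.007) and the tied letters (-0.02), and those of Tnfaip6 and Tnfrsf21 stayed above 0 in each alternative that gave a value. Tnfaip1, an adaptor of a ubiquitin ligase named for its induction by TNF, had -0.28, 0.02 and 0.06 (mean -0.07 ± 0.18). Ratios of Tnfaip6 came from 6 arrays, of which those with collagen in Cy5 averaged 0.41 and those with collagen in Cy3 averaged 0.08. Of the 14 receptors, 10 means were below 0 (median -0.04), beside 2451 of all 4139 probes (median -0.025), a count of 6 without background correction, 7 with print-tip loess and 3 of 12 in the authors' value table.

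**Figure D2:**
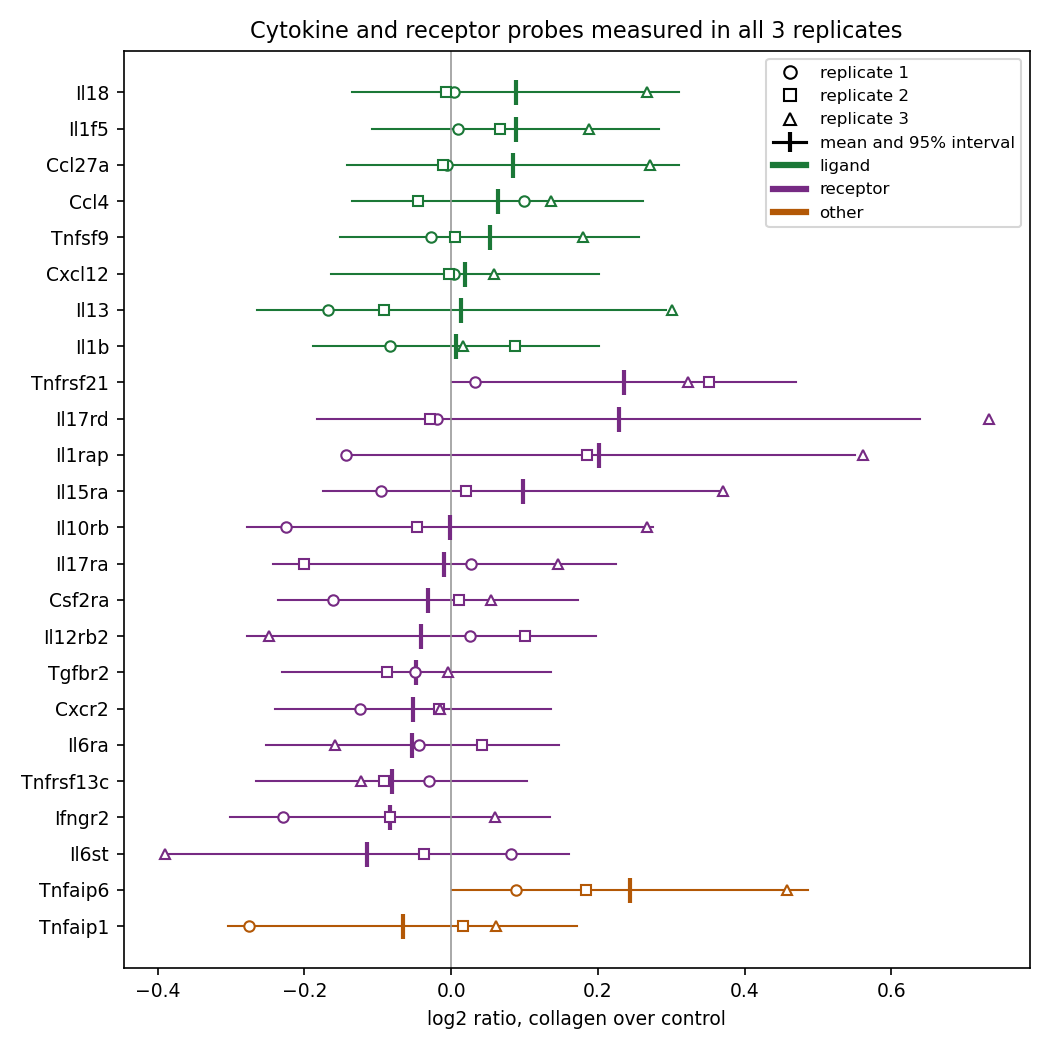
Log2 ratio of collagen over control for the 24 member probes measured in all 3 replicates, with ligands in green, receptors in purple and other members in orange. Open symbols are replicates, the tick is their mean and the line its 95% interval by limma. Means run between -0.12 (Il6st) and 0.24 (Tnfaip6 and Tnfrsf21), and replicate 3 is the highest replicate for each ligand but Il1b.

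Members measured in part were looked at next. Of the 38 members with a ratio in 2 replicates, 14 were higher in both, 9 lower in both and 15 of opposite sign, with values between -1.20 and 0.52. Of the 24 members with a ratio in 1 replicate, 15 were above 0 and 9 below, between -0.53 and 0.43. None of these members can be tested over 3 replicates. Over the whole array, 2584 probes were measured in 2 replicates and 1414 in 1. Their directions were not counted, so the member counts have no share over all probes beside them.

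Among them, 2 had a mean over 0.5 in size. Cxcl10, an interferon-induced chemokine that attracts T cells, had a ratio of -0.53 in replicate 1 alone, from arrays at -0.49 with collagen in Cy5 and -0.56 with collagen in Cy3 of pair 2. In replicate 2 the usable arrays of Cxcl10, each without its partner, were at 0.11 and -0.08. Cxcl10 had a ratio on 5 arrays in all. In channel A alone, a comparison set out further below, its differences were 0.28, 0.23 and 0.64 in replicates 1, 2 and 3. These are opposite in sign to the ratio, although pair 2 of replicate 1 was at -0.10 there. Tgfbr1, the chain that carries the TGF-beta signal into the cell, had -1.20 in replicate 1 and -0.23 in replicate 2. The ratios of Cxcl10 and Tgfbr1 thus rest mainly on replicate 1.

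A number of genes of interest for the brain, chosen after their values were seen, were also in that set. Ccl12, a monocyte-attracting chemokine, had ratios of -0.35 and -0.38 in replicates 1 and 2. Ccl2, its close relative, had -0.36 and 0.22, so its replicates were opposite in sign. Tgfb2 and Tgfb3, ligands made by glia and neurons, had 0.13 and 0.33 for Tgfb2 and -0.07 and -0.01 for Tgfb3. Il34, a microglial survival factor made by neurons, had -0.02 and -0.09. Tnfsf13b, the B cell factor BAFF that binds Tnfrsf13c, had -0.14 and -0.01. None of them was measured in replicate 3.

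Channel A alone allowed more members to be compared. In each pair, the normalised log2 channel A signal of the array with collagen RNA in that channel was set against the array with control RNA in it, for 125 of 127 members and 9898 probes. Limma called 0 of 125 members and 0 of 9898 probes (0%). At an unadjusted p under 0.05, 4 members were higher, beside 3.83% of all probes, and 1 was lower, beside 4.68%. The member median was 0.11 and that of all probes 0.007, with 77 of 125 members above 0, beside 5004 of 9898 probes (50.6%). This comparison is less precise: 39 members (31.2%) and 16.1% of all probes had an interval inside a 2-fold change.

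The 4 higher members, named because they crossed that threshold, were Tnfsf8 (the CD30 ligand of T cells), Ccr7 (a lymph node homing receptor), Tnfrsf23 (a decoy receptor for TRAIL) and Ccl17 (a chemokine for Ccr4). The mean differences were 1.39 ± 1.14 for Tnfsf8, 1.28 ± 1.04 for Ccr7, 1.43 ± 1.38 for Tnfrsf23 and 0.90 ± 0.50 for Ccl17. Their adjusted limma p was 0.583 each. All 4 were highest in replicate 3, at 2.66, 2.24, 2.91 and 1.45. Within arrays, the collagen ratios in replicates 1 and 2 were 0.39 and 0.01 for Tnfsf8, 0.07 and 0.09 for Ccr7 and 0.32 and 0.06 for Ccl17. These were not measured in replicate 3, and Tnfrsf23 was measured in no replicate.

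The 1 lower member was Tgfbr1. In channel A its normalised log2 signal was -1.18 with collagen RNA and 2.51 with control RNA in replicate 1, pair 1. Across the pairs the differences were -3.70, -1.14, -2.14, -1.56 and -2.09, below 0 in 5 of 5 pairs (replicate mean -2.12 ± 0.28, 95% interval -2.93 to -1.31, adjusted p = 0.50 by limma). Among probes with all 5 pairs, 5 of 98 members and 6.78% of all probes were below 0 in each pair. Above 0 in each pair were 8 of these members and 6.86% of all probes. For Tgfbr1, the dimmer array was the collagen-in-Cy3 slide each time. In channel B, which holds the opposite RNA on each slide, the collagen minus control difference of centred log2 signal was 3.04 and 3.48 for Tgfbr1 in the pairs that had a channel B signal on both slides, the reverse sign. The Tgfbr1 probe was thus dimmer in both channels on the collagen-in-Cy3 slide of those pairs. Its ratio within an array, which does not compare slides, was -2.38, -0.14, -0.01, -0.32 and -0.26 on the 5 arrays that had one.

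Over the members, the channels were compared as a description. In the 5 pairs, 29 to 54 members had a signal in both channels on both arrays, and their channel A and channel B differences correlated at -0.73 to -0.94 across probes, which share slides and are not replicates. Over all probes the correlations were -0.76 to -0.94. The sign was opposite in the channels for 59.6% to 86.2% of members. Within a pair, a member brighter on a slide in channel A was thus mostly brighter on that slide in channel B too, although the channels held opposite RNAs.

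**Figure D3:**
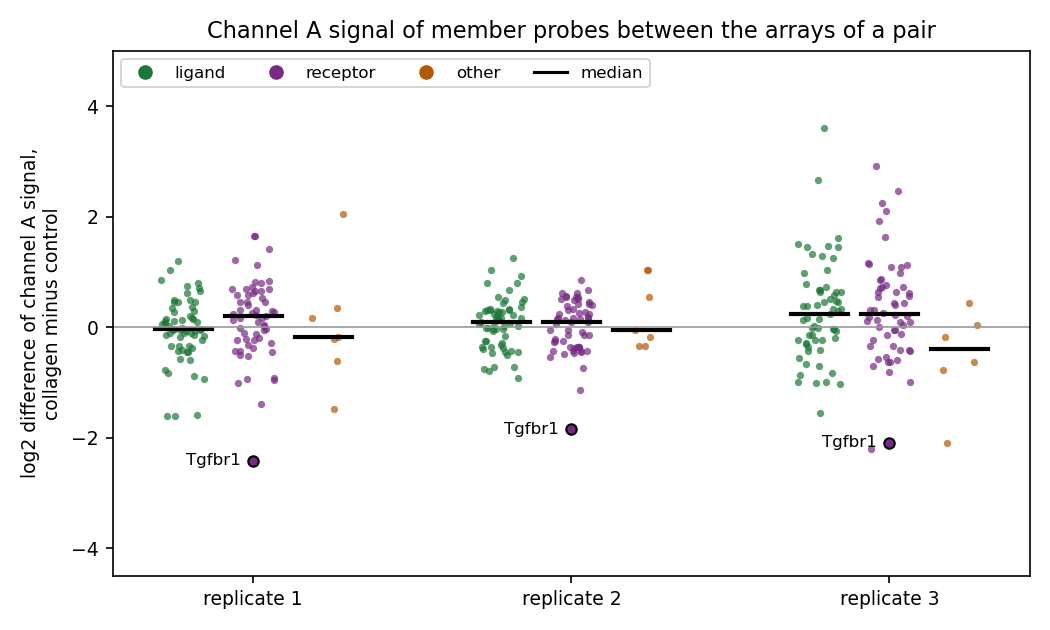
Difference of normalised log2 channel A signal, collagen minus control, for member probes in each replicate, by role, with bars at the medians. Tgfbr1 is outlined and lies at -2.42, -1.85 and -2.09 in replicates 1, 2 and 3, and the widest scatter is in replicate 3.

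**Figure D4:**
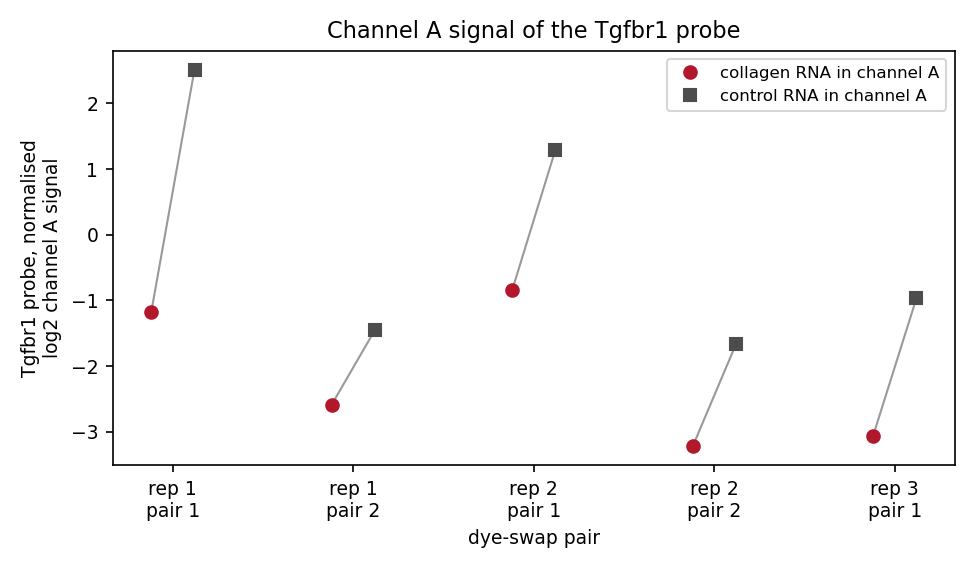
Normalised log2 channel A signal of the Tgfbr1 probe in the 5 dye-swap pairs, with collagen RNA (red circles) and control RNA (grey squares) in channel A. The collagen value is below the control value in each pair, with differences between -3.70 and -1.14.

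The brightest of the 77 members with channel A signal on all arrays but no ratio in all replicates varied between replicates. Ccr3, an eosinophil receptor, had channel A differences of -0.45, -0.37 and 1.15 (mean 0.11 ± 0.90). Il10ra, the binding chain of the IL-10 receptor, had -0.51, -0.44 and 0.44 (mean -0.17 ± 0.53). Their replicates were on both sides of 0. Il5, the eosinophil growth factor, had 0.15, 1.03 and 0.50 (mean 0.56 ± 0.45). Il11, a gp130 cytokine, had 0.44, 0.51 and 1.33 (mean 0.76 ± 0.49), and Ifnz, a type I interferon of mice, had 0.06, 0.31 and 1.50 (mean 0.63 ± 0.77). These 3 ligands were above 0 in each replicate, beside 1676 of 9898 probes, with adjusted limma p of 0.590 to 0.637. Within arrays, their collagen ratios in replicates 1 and 2 were 0.25 and 0.03 for Il5, 0.08 and 0.10 for Il11 and -0.008 and -0.05 for Ifnz. Tnfrsf22, a decoy TRAIL receptor, averaged 0.08 ± 0.56, Ifna4, an interferon alpha, 0.12 ± 0.52 and Ccl12 -0.52 ± 1.00.

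The ratio of the channels, B over A without turning, was larger than the collagen ratio for several members. Limma called 0 of 24 members and 55 of 4139 probes (1.33%), all 55 brighter in channel A. Ccl4 had a mean of -0.56 ± 0.08 (adjusted p = 0.0545) and was brighter in A on 10 of 10 arrays. In the array-level fit with the replicate block, Ccl4 (adjusted p = 0.0206) and Il10rb (adjusted p = 0.0356) were called. On arrays with collagen in Cy3 the Ccl4 collagen ratio averaged 0.61, and on arrays with collagen in Cy5 it averaged -0.51. The values of Ccl4 on the arrays therefore separate by dye, and only their mean is near 0.

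Further members behaved alike or in reverse. Il10rb was brighter in A on 8 of 8 arrays, with collagen ratios averaging 0.51 with collagen in Cy3 and -0.37 with collagen in Cy5. Il1b was brighter in B on 9 of 9 arrays, with -0.18 and 0.19 in the same order. Ccr3 had the widest split: its channel ratio lay between -2.53 and -0.83 on 9 arrays, all brighter in A, while its collagen ratio was 0.21 in replicate 1 and -0.25 in replicate 2. In 17 of 24 members (70.8%) the mean collagen ratio had opposite signs on the dye orientations, as in 69.2% of all tested probes.

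**Figure D5:**
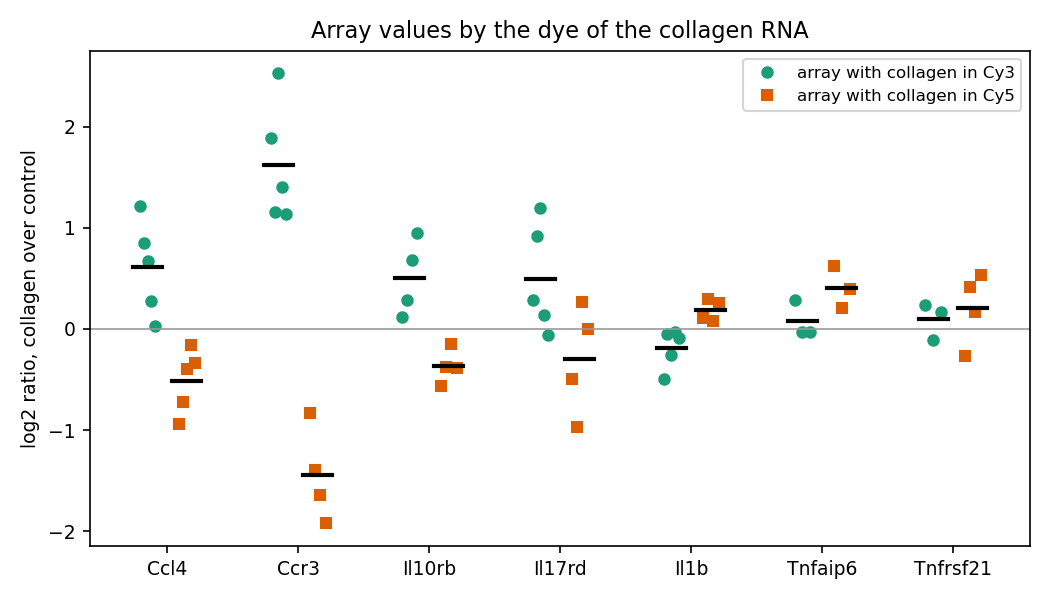
Log2 ratio of collagen over control on each array for 7 member probes, split by whether the collagen RNA was in Cy3 (green circles) or Cy5 (orange squares), with bars at the means. Ccl4 and Ccr3 lie above 0 on each Cy3 array and below 0 on each Cy5 array, and Il1b the other way round. The means of Tnfaip6 (0.08 in Cy3, 0.41 in Cy5) and Tnfrsf21 (0.10 and 0.21) are above 0 in both orientations. Tnfaip6 was brighter in channel A on 1 of 6 arrays, and Tnfrsf21 on 3 of 7.

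The replicates agreed weakly over the members, as over all probes. Collagen ratios of the 24 members correlated across probes at 0.17 between replicates 1 and 2, -0.08 between 1 and 3 and 0.26 between 2 and 3, and those of all tested probes at 0.11, 0.03 and 0.005. The channel ratios of the members correlated at 0.62, 0.41 and 0.64. The pairs of replicate 1 correlated at -0.28 over 27 members and those of replicate 2 at 0.27 over 24, against 0.03 and 0.07 over all probes.

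Genes downstream of the receptors were read from a list of 68 intracellular signalling genes, of which 33 had a probe and 10 were measured in all replicates. Limma called none of the 10, with 5 means above 0 and 5 below and a median of 0.010. The highest were Pias2, an inhibitor of STAT proteins (0.18 ± 0.16), Tollip, a damper of IL-1 receptor signalling (0.06 ± 0.17), and Socs5, a suppressor of cytokine signalling (0.04 ± 0.10). The lowest were Irak1, a kinase of the IL-1 receptor (-0.14 ± 0.14), Ptpn11, a phosphatase of cytokine receptors (-0.06 ± 0.10), and Socs2 (-0.05 ± 0.42). A second Pias2 probe had ratios of -0.22 and 0.16 in replicates 1 and 2, and a second Ptpn11 probe had -0.85 and 0.07. The list median lay beside a median of -0.025 over all probes.

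Cells that make these cytokines could also differ in number. Of 8 microglia and macrophage markers with a probe, 5 were measured in all replicates, 2 above 0 and 3 below, with a median of -0.06. Of 7 leukocyte markers, 3 were measured in all replicates: Cd79b of B cells (0.29 ± 0.22), S100a8 of neutrophils (0.39 ± 0.59) and Cd5 of T cells (-0.13 ± 0.05). Cd79a, also of B cells, had -2.03 and 0.87 in replicates 1 and 2. S100a9 had 1.43 and 0.02 in replicates 2 and 3, Cd3e had -0.02 in replicate 2, and Ly6c1 was measured in no replicate. Limma called none of the markers tested, and the part of these cells in the member values was not tested. Of the other lists, choroid plexus had 2 genes measured, endothelium and astrocyte 1 each, none called, and red cell genes had no probe.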

How the data were processed

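Total RNA of collagen and control midbrain was labelled with 1 of 2 dyes for 2-colour arrays, per the labels' protocols. The deposited scanner files hold spot intensity values of channels A and B, already corrected for background per the file headers, in 29 scans of 10 arrays (3 each for 9 arrays, 2 for 1). A saturation factor per spot, per the file headers, was read as the fraction of pixels below saturation and used to leave out saturated spots in 1 alternative. Neither software nor genome build was named in the sources used here. The authors' value table holds a score per probe, deposited with scale and direction unstated, and was used as an alternative. Its columns correlated with the B over A ratio at 0.67 to 0.84 where collagen was in Cy5 and at -0.67 to -0.79 where it was in Cy3, and had medians between -0.0086 and 0.0033.

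Spots with both intensities over 0 and no bad flag gave log2 B over A, normalised by loess within each scan (limma 3.58.1, R 4.3.3, span 0.3, 4 iterations). Values were averaged over scans, turned to collagen over control, and averaged over both arrays of a pair, then pairs, so n = 3. Arrays of a pair and pairs of a replicate number were taken as the same RNAs. Arrays of like number correlated at 0.19 to 0.21 between orientations after centring, and other numbers at -0.075 or less. Centring can itself lower the correlations of other numbers, so this gap does not establish the pairing. The collagen ratios of the pairs within replicates 1 and 2 correlated at 0.03 and 0.07 over all probes. Limma's lmFit and eBayes tested the mean against 0, two-sided, Benjamini-Hochberg over all tested probes, at 0.05. Channel A alone was centred per scan, averaged over scans and quantile normalised, and tested likewise. The fits were tested on simulated data.

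Arrays of 1 dye orientation correlated at 0.078 to 0.56. Of 10080 probes, 9066 have 1 symbol, 12 have several and were not named, and the RefSeq table changed none. Different probes of a gene were kept apart. The number of arrays limits the precision. Every member tested in all replicates is named. Also named are partly measured members with a mean over 0.5 in size, the 8 brightest in channel A among those with no ratio in all replicates, members with no ratio, and the 3 highest and 3 lowest signalling genes. The members and lists were chosen with earlier results of these data known.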

Additional observations from a re-analysis of the deposited data

Results flagged for a closer look

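In 31 sets of 5 arrays of 1 dye orientation (the ratio of each tested member with a value on all 5, the member counts and the member median), 1 had an array far from the others. The Ifngr2 ratio was 0.201 on the array of replicate 1, pair 2, with collagen in Cy5, against -0.282 on the nearest and -0.410 on the farthest of the other arrays. Its partner array had no Ifngr2 ratio, so the value entered no replicate mean. Chance marks about 1 in 20 such sets.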

How the results depend on the processing

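Under the 19 alternatives run on the ratio, no member was called. The lowest adjusted limma p of a member was 0.0545, for Ccl4 with the channel letters tied to the RNA. That reading repeats the channel ratio, B over A without turning, with its 55 called probes, and is not a separate collagen result. Under the other alternatives the lowest adjusted limma p of a member was 0.662, for Ccl12 without replicate 3. The count of measured members was 13 with the dimmest probes left out, 62 with at least 2 replicates, 55 with any array of a replicate, and 26 to 57 when 1 replicate was left out, with 57 without replicate 3. Members called in the channel ratio numbered 1 with print-tip loess, with saturated spots left out (both Ccl4) and with at least 2 replicates (Ccr3), and 0 to 1 when 1 replicate was left out (Il17rd without replicate 1, Ccr3 without replicate 3). They numbered 2 in the array-level fit with the replicate block and 2 with no replicate block. With paired numbers as the block, no call differed from the array-level fit without it. Channel A alone called no member with median centring or with 1 replicate left out. The member median lay between -0.069 with median centring and 0.052 without replicate 1, with the letters tied to the RNA at -0.067. Of 436 member values, 51 moved by at least 1 SD and 78 changed sign, 62 of them outside the tied letters. Members at an unadjusted p under 0.05 numbered 0 to 6. The causes were not tested. Weak channel B signal limits the measured members, and 3 replicates limit every interval.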
